A study of Mus musculus with 12 samples.

Results

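The genes described here encode 10 chains of cytokine and interferon receptors: Ifnar1, Ifnar2, Ifngr1, Ifngr2, Il10ra, Il4ra, Il13ra1, Il6ra, Il6st and Il15ra. They were chosen by name, as the rows of the deposited table whose platform gene symbol was exactly one of these names. The choice was made with earlier results of these data known. Each of the 10 was read by 1 row, out of 22180 genes with a symbol of their own, and all 10 passed the filter on dim rows that left 14079 genes for testing. Expression was measured in mouse macrophages derived from bone marrow. All groups were cultured with L929 supernatant, which supplies the growth factor for these cells.

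The 4 groups of 3 arrays were Rasgef1b knockout cells with R848, knockout cells with saline, wild-type cells with R848, and wild-type cells with saline. Knockout cells came from Rasgef1b_fl/fl_vav-icre mice, in which a Cre recombinase driven by the Vav promoter, active in blood-forming cells, removes a floxed part of Rasgef1b, a gene for an exchange factor of Ras-family GTPases. R848 is a small agonist of Toll-like receptor 7 and was given for 4 h, while the labels state no time for saline. The labels name no group that carries Cre without the floxed gene, so Cre itself and the loss of Rasgef1b cannot be told apart. Nor do they tell whether the replicates came from different animals or cultures. The p-values therefore rest on a spread between arrays that may be technical. Values are RMA log2 intensities, on which a difference of 1 is a 2-fold change, and levels of different genes are not compared because each row has its own probes.

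Receptors of this kind carry no enzyme of their own. Ligand brings chains together, and JAK kinases bound to the inner tails of the chains that carry the signal become active. STAT transcription factors are then phosphorylated and move to the nucleus. Chains divide the work: some bind the ligand, some mainly carry the signal, and several are shared between ligands, so the amount of each chain helps set which cytokines a macrophage can hear. In macrophages, type I interferons and interferon gamma drive antiviral and activating programmes, interleukin 10 restrains inflammation, and interleukins 4 and 13 drive alternative activation.

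As a check of the labels, Rasgef1b stood at 9.45, 8.60 and 9.36 in knockout cells with R848, against 9.84, 9.84 and 9.69 in wild-type cells with R848. With saline it stood at 8.63, 7.88 and 8.72 in knockout cells and at 9.03, 9.19 and 9.14 in wild-type cells. Every knockout array was lower than every wild-type array of the same treatment, with knockout replicate 2 lowest each time, but signal remained. The difference was -0.65 with R848 and -0.71 with saline, neither past the threshold (limma adjusted p = 0.333 and 0.158), and -0.68 averaged over treatments (adjusted p = 0.036). Which part of the gene the probes read is not given in the sources used here. Within a group, the correlation of arrays ranged over 0.9909 to 0.9964. All 9 macrophage markers lay above the dim limit in every group. So did 4 or 5 of 7 dendritic cell markers, 3 of 6 fibroblast markers, 2 of 8 neutrophil markers, 1 of 6 mast cell markers, 1 of 6 T and NK cell markers and 0 of 4 B cell markers. The mean of the macrophage markers was 10.36 to 10.42 in knockout cells with R848, against 10.63 to 10.73 in knockout cells with saline, and 10.31 to 10.34 in wild-type cells with R848, against 10.51 to 10.62 in wild-type cells with saline. With R848, 2 of the 9 rose and 5 fell past the threshold in knockout, and 2 rose and 4 fell in wild type. Over all tested genes, 15.6% were called higher and 26% lower in knockout, and 14.6% and 23.6% in wild type. The efferocytosis receptor Mertk fell by 1.92 in knockout and by 1.79 in wild type. Cd14 rose by 0.66 and 0.67, and Adgre1 by 0.22 and 0.32. These shifts stood beside the changes of the receptor chains described next. The part of these marker shifts in those changes was not tested, and in bulk samples fewer cells of a type and less RNA per cell cannot be told apart.

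The first question was how R848 changes each receptor in either genotype. The largest increases were in the chains that together form the receptor for interleukins 4 and 13. Il4ra, the interleukin 4 receptor alpha chain, which binds interleukin 4 and carries the docking sites for STAT6, stood at 9.51, 9.65 and 9.70 in knockout cells with R848, against 7.32, 7.43 and 7.24 in knockout cells with saline. In wild-type cells it stood at 9.56, 9.80 and 9.86 with R848, against 6.86, 7.29 and 7.32 with saline. The lowest R848 array was thus far above the highest saline array, and the increase was 4.89-fold in knockout (2.29 ± 0.12 on the log2 scale, SE, limma adjusted p = 7.8e-10) and 5.99-fold in wild type (2.58 ± 0.12, adjusted p = 2.14e-10).

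Il13ra1, which binds interleukin 13 and pairs with Il4ra, lay close to the dim limit of 4.31 to 4.35 without R848 and also rose. It stood at 7.14, 7.07 and 6.75 in knockout cells with R848, against 5.03, 4.64 and 4.74 in knockout cells with saline. Wild-type values were 7.53, 7.02 and 7.22 with R848, against 5.43, 5.01 and 5.02 with saline. Treatments did not overlap in either genotype, and the increase was 2.18 ± 0.15 on the log2 scale in knockout (SE, limma adjusted p = 2.23e-08) and 2.10 ± 0.15 in wild type (adjusted p = 3.78e-08).

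The promoters of these genes are shown because both rose strongly. Sequences are RefSeq's, build GRCm38.p6, from 250 bases before to 50 after the start of transcription, at chr7:125552021-125552320 on the plus strand for Il4ra and chrX:36111858-36112157 on the plus strand for Il13ra1. Capitals mark the match to the NF-kB form given further on, and Il13ra1 holds no match to any motif searched.
Il4ra: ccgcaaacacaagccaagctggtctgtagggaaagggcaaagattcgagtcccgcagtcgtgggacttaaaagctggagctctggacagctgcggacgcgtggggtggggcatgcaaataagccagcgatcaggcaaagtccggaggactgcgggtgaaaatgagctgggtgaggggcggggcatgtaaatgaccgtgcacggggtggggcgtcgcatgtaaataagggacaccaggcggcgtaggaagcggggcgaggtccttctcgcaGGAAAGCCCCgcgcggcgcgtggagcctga
Il13ra1: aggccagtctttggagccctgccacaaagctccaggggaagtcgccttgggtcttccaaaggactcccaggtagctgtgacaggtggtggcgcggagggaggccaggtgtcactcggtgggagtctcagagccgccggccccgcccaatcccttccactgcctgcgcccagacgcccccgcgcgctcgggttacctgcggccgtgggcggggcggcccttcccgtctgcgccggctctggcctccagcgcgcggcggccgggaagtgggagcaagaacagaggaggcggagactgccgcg

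The chains of the interleukin 6 receptor moved the other way. Il6ra, the chain that binds interleukin 6, stood at 7.18, 6.76 and 7.07 in knockout cells with R848, against 9.36, 8.94 and 8.83 in knockout cells with saline. Wild-type cells had 7.31, 7.18 and 7.34 with R848, against 9.10, 9.25 and 8.94 with saline. Every R848 array was below every saline array, and Il6ra was 4.11-fold lower in knockout (-2.04 ± 0.14 on the log2 scale, SE, limma adjusted p = 1.31e-08) and 3.53-fold lower in wild type (-1.82 ± 0.14, adjusted p = 5.24e-08).

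Il6st encodes gp130, the signalling chain that interleukin 6 shares with interleukin 11, leukaemia inhibitory factor, oncostatin M and interleukin 27. It stood at 8.12, 8.14 and 7.94 in knockout cells with R848, against 9.86, 9.93 and 9.48 in knockout cells with saline. Wild-type arrays gave 8.18, 8.02 and 7.92 with R848, against 9.60, 9.57 and 9.43 with saline. Again no R848 array reached a saline array, with a fall of 3.23-fold in knockout (-1.69 ± 0.11 on the log2 scale, SE, limma adjusted p = 1.34e-08) and of 2.81-fold in wild type (-1.49 ± 0.11, adjusted p = 6e-08). The 4 chains Il4ra, Il13ra1, Il6ra and Il6st were the only members past the threshold that changed at least 2-fold, in either genotype. Over all tested genes, 7.71% in knockout and 7.2% in wild type met that rule.

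The promoters of the chains that fell, shown for comparison with those that rose, lie at chr3:89913147-89913446 on the minus strand for Il6ra and chr13:112463820-112464119 on the plus strand for Il6st. Neither holds a match to a motif searched, so no base is in capitals.
Il6ra: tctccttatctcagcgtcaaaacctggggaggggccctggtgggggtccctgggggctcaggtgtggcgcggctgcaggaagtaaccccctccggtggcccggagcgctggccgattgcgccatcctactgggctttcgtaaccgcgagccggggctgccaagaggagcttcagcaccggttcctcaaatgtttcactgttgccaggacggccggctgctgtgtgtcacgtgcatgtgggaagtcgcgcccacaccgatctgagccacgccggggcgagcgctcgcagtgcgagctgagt
Il6st: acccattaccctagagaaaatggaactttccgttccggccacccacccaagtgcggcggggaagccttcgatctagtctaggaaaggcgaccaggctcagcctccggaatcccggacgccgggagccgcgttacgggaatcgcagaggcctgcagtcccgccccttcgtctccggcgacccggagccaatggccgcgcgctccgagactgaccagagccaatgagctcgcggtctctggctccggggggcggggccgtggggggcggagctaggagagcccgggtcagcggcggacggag

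**Figure D1:**
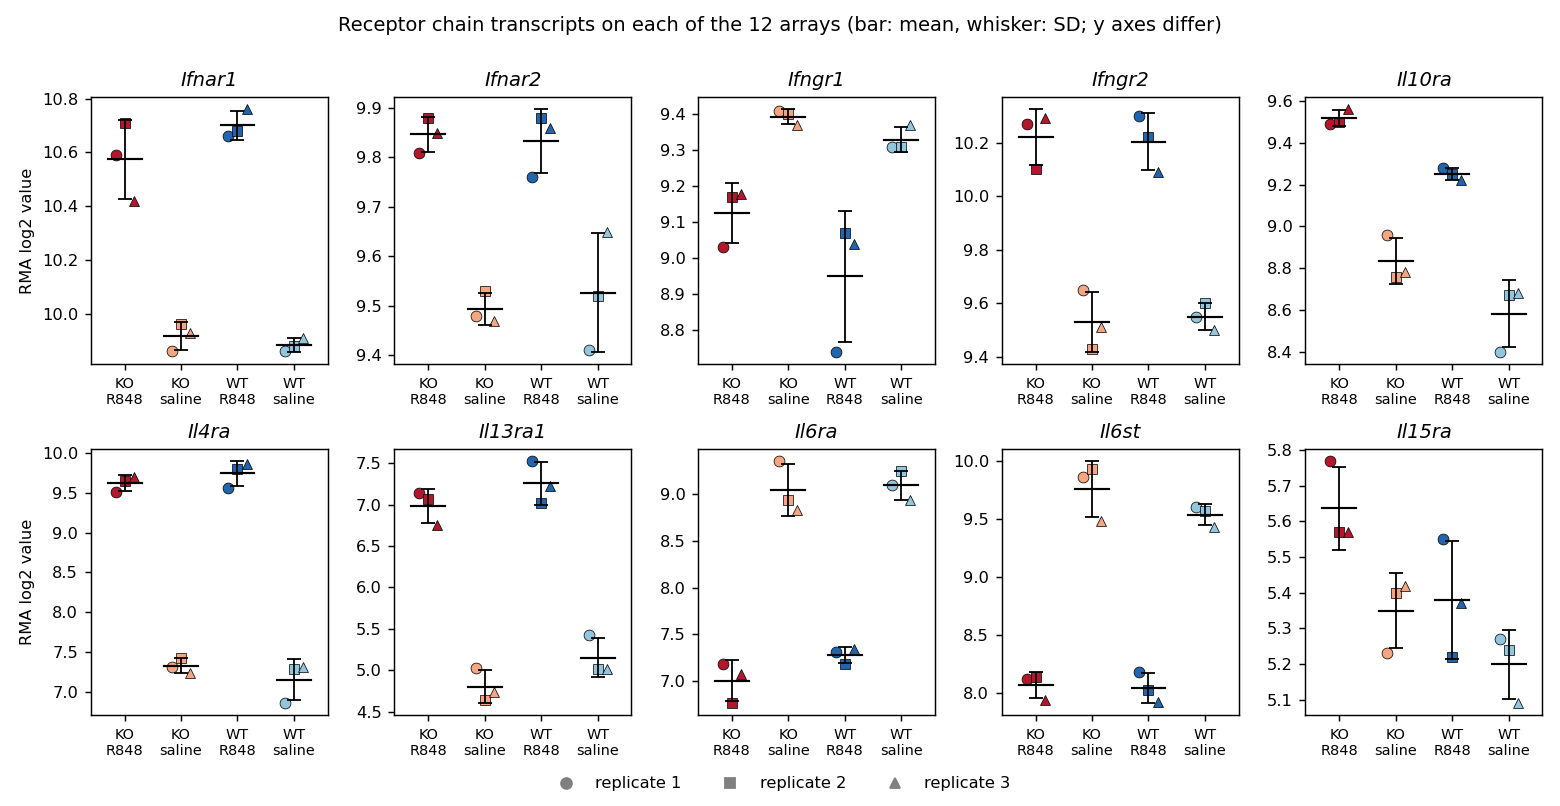
Each panel plots 1 receptor chain, with the RMA log2 value of each of the 12 arrays on the y axis, the 4 groups on the x axis, the marker shape giving the replicate number, a bar for the group mean and whiskers for the SD (n = 3), on y axes that differ between panels. With R848, Il4ra and Il13ra1 stand high and Il6ra and Il6st low in knockout and wild type alike, while the interferon receptor chains move within a narrower range.

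Interferon receptor chains changed less. Ifnar1, the chain of the type I interferon receptor that binds the kinase Tyk2, stood at 10.59, 10.71 and 10.42 in knockout cells with R848, against 9.86, 9.96 and 9.93 in knockout cells with saline. In wild type it was at 10.66, 10.68 and 10.76 with R848, against 9.86, 9.88 and 9.91 with saline. The increase was 0.66 ± 0.08 on the log2 scale in knockout (SE, limma adjusted p = 7.58e-06) and 0.82 ± 0.08 in wild type (adjusted p = 8.6e-07), and the treatments did not overlap. Ifnar2, the partner chain with the higher affinity for ligand and the binding site for Jak1, lay between 9.81 and 9.88 in knockout cells with R848, against 9.47 to 9.53 in knockout cells with saline. Its wild-type arrays lay between 9.76 and 9.88 with R848, against 9.41 to 9.65 with saline. It rose by 0.35 ± 0.08 in knockout and 0.31 ± 0.08 in wild type, less than 1.3-fold in each case.

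The chains of the interferon gamma receptor changed in opposite directions. Ifngr2, the chain that brings in the kinase Jak2, stood at 10.27, 10.10 and 10.29 in knockout cells with R848, against 9.65, 9.43 and 9.51 in knockout cells with saline. Its wild-type values were 10.30, 10.22 and 10.09 with R848, against 9.55, 9.60 and 9.50 with saline. This was an increase of 0.69 ± 0.08 on the log2 scale in knockout (SE, limma adjusted p = 9.23e-06) and of 0.65 ± 0.08 in wild type (adjusted p = 1.75e-05). Ifngr1, which binds interferon gamma, stood at 9.03, 9.17 and 9.18 in knockout cells with R848, against 9.41, 9.40 and 9.37 in knockout cells with saline. In wild type the values were 8.74, 9.07 and 9.04 with R848, against 9.31, 9.31 and 9.37 with saline. Every R848 array was below every saline array, and the decrease was -0.27 ± 0.09 in knockout (limma adjusted p = 0.023) and -0.38 ± 0.09 in wild type (adjusted p = 0.00266).

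The knockout call of Ifngr1 was lost without knockout R848 replicate 1 (-0.22, limma adjusted p = 0.0934), without knockout saline replicate 1 (-0.26, 0.0585) or 2 (-0.26, 0.0568), after cyclic loess (-0.19, 0.0979) and after centring on the median of the tested genes (-0.12, 0.265). The wild-type call held in these cases. That centring put the median change of all tested genes at 0.12 in knockout and 0.11 in wild type, where the deposited scale gave -0.03 in knockout and -0.02 in wild type.

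The promoters of Ifngr1 (chr10:19591699-19591998, plus strand) and Ifngr2 (chr16:91546809-91547108, plus strand) are shown because the transcripts of this receptor moved apart. Capitals in Ifngr2 mark matches to the STAT6 and NF-kB forms, in that order, and Ifngr1 holds none.
Ifngr1: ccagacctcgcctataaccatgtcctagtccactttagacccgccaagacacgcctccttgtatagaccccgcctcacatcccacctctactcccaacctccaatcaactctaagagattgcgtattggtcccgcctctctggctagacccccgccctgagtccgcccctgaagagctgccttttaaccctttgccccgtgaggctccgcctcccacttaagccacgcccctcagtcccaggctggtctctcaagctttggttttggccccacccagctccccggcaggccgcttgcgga
Ifngr2: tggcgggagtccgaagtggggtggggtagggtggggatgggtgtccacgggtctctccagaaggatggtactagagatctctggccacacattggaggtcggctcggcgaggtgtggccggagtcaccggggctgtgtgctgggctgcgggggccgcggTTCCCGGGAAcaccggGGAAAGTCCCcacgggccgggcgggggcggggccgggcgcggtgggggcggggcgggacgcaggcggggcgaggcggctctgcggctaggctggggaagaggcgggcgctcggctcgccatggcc

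A RefSeq promoter was found for 9 of the 10 members, 10 promoters in all since Il15ra has 2. Both strands were searched for 6 motifs, each with the share of all 32851 RefSeq promoters of this length that hold it: GGG and TTCC with any 3 bases between them, a common form of the NF-kB site (5.6%), TTCNNNGAA, the GAS site (8.3%), TTC and GAA with any 4 bases between them, the spacing preferred by STAT6 (7.0%), GAAA repeated after any 2 bases, the core of the interferon-stimulated response element (3.4%), TGANTCA for AP-1 (7.8%) and TTGCNNAA for C/EBP (10.8%). The NF-kB form was found in Il4ra, from 21 bases after the start, and in Ifngr2, in both cases on the strand opposite to the gene. The GAS form was found in Ifnar1 and Ifnar2, the STAT6 form in Ifngr2, and the AP-1 site in 1 of the 2 promoters of Il15ra. The promoters of Ifngr1, Il6ra, Il6st and Il13ra1 and the other promoter of Il15ra held no match, and no matches overlapped. A match describes these letters in this window only.

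Il10ra, the chain that binds interleukin 10, stood at 9.49, 9.50 and 9.56 in knockout cells with R848, against 8.96, 8.76 and 8.78 in knockout cells with saline. In wild-type cells it stood at 9.28, 9.25 and 9.22 with R848, against 8.40, 8.67 and 8.68 with saline. No 2 of the 4 groups overlapped, and in order of level they were knockout with R848, wild type with R848, knockout with saline and wild type with saline. R848 raised Il10ra by 0.68 ± 0.09 on the log2 scale in knockout (SE, limma adjusted p = 1.21e-05) and by 0.67 ± 0.09 in wild type (adjusted p = 1.7e-05).

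Il15ra, which holds interleukin 15 and presents it to neighbouring cells, was dim, between 5.09 and 5.77 on the 12 arrays. It stood at 5.77, 5.57 and 5.57 in knockout cells with R848, against 5.23, 5.40 and 5.42 in knockout cells with saline, a rise of 0.29 ± 0.10 on the log2 scale (SE, limma adjusted p = 0.0272). In wild-type cells it stood at 5.55, 5.22 and 5.37 with R848, against 5.27, 5.24 and 5.09 with saline, where the treatments overlapped and the difference of 0.18 ± 0.10 did not pass (adjusted p = 0.17). The knockout call was lost without knockout R848 replicate 1 (0.22, limma adjusted p = 0.118) and without knockout saline replicate 1 (0.23, 0.113), and the wild-type difference passed after centring on the median of the tested genes (0.31, 0.0181).

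By count, 7 of the 10 members rose and 3 fell with R848 in knockout, where 41.6% of all tested genes passed the threshold, 15.6% higher and 26% lower. In wild type 6 rose, 3 fell and Il15ra did not pass, where 38.3% of all tested genes passed, 14.6% higher and 23.6% lower. Averaged over genotypes 10 of 10 passed (50% of all tested genes), 4 of them at least 2-fold (7.41%). The median change of the members was 0.51 in knockout and 0.48 in wild type on the log2 scale, beside -0.03 and -0.02 over all tested genes, and the median size of change was 0.69 and 0.74, beside 0.19 and 0.17. Groups did not overlap for 10 members in knockout (48.8% of all tested genes) and for 9 in wild type (48.1%). Because the members were chosen with earlier results of these data known, these counts and medians describe them. They are no test of the members against all genes.

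**Figure D2:**
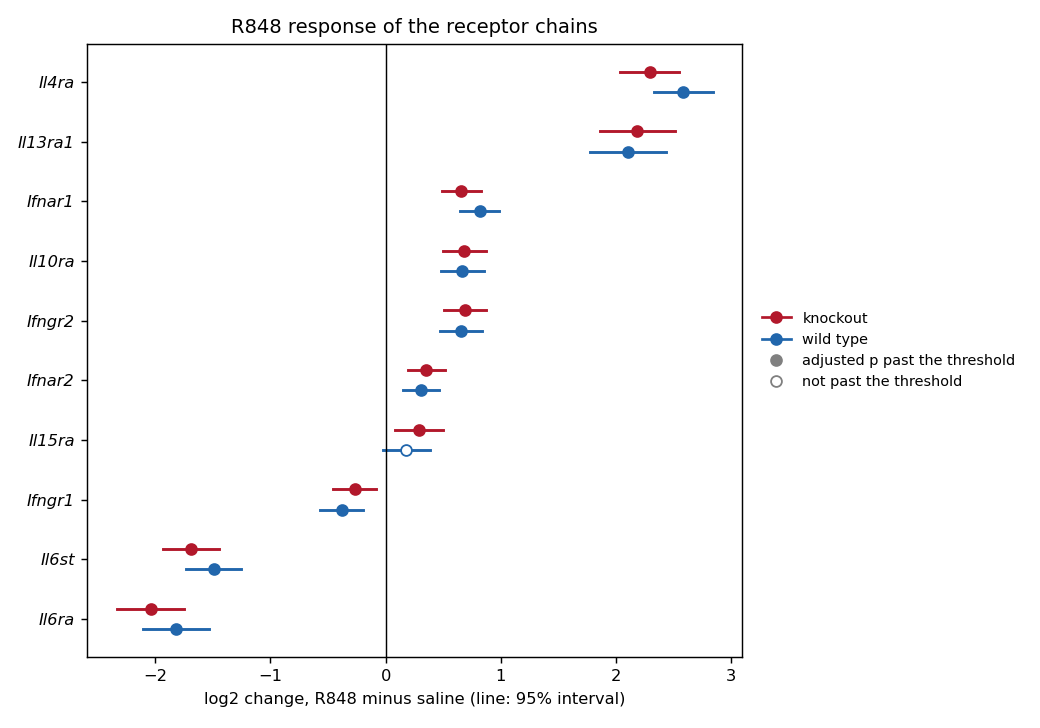
Log2 change with R848 (R848 minus saline, x axis) of each receptor chain (y axis) in knockout and in wild type, as point estimates from the fit over all tested genes with unadjusted 95% intervals, filled where the adjusted p passed the threshold. The chains run from Il4ra, the highest at 2.29 in knockout and 2.58 in wild type, to Il6ra, the lowest at -2.04 and -1.82, and the intervals of the genotypes overlap for every chain.

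Where chains of 1 receptor changed by different amounts, the difference of their log2 values on each array gives it, and 5 receptors were examined this way. Each row has its own probes, so only the change of this difference with R848 is read, not its level. How evenly the probes of each row follow a change was not tested. Unequal changes in the same direction therefore describe the rows only. The comparison of R848 with saline used a two-sided exact permutation test that exchanged arrays within each genotype, with 400 arrangements, a smallest possible p of 0.005, and Benjamini-Hochberg adjustment over the 5 receptors. For the interferon gamma receptor, Ifngr1 minus Ifngr2 lay between -1.24 and -0.93 in knockout cells with R848, against -0.24 to -0.03 in knockout cells with saline. In wild-type cells it lay between -1.56 and -1.05 with R848, against -0.29 to -0.13 with saline. The balance moved toward Ifngr2 by -0.96 in knockout and -1.03 in wild type (exact permutation p = 0.005, the smallest possible, adjusted p = 0.00833). Because Ifngr1 fell and Ifngr2 rose without overlap in both genotypes, this p was fixed by those changes and adds no evidence to them.

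For the interleukin 10 receptor the partner is Il10rb, a chain also used by interleukin 22 and lambda interferons, which fell by 0.27 in knockout (limma adjusted p = 0.00394) and by 0.20 in wild type (adjusted p = 0.028) while Il10ra rose. Il10ra minus Il10rb lay between -0.58 and -0.49 in knockout cells with R848, against -1.59 to -1.34 in knockout cells with saline, and the change of 0.96 there compared with 0.87 in wild type (exact permutation adjusted p = 0.00833). This p too was fixed in advance, because Il10ra rose and Il10rb fell without overlap in both genotypes. Ifnar1 minus Ifnar2 changed by 0.30 in knockout and 0.51 in wild type (exact permutation adjusted p = 0.00833), and in both genotypes the R848 arrays lay above the saline arrays. Il6ra minus Il6st changed by -0.35 in knockout, where the arrays of the treatments overlapped, and by -0.33 in wild type, where they did not (exact permutation adjusted p = 0.0312). That test does not use replicate numbers, by which the knockout arrays met the check for pairing, and between same-numbered knockout arrays the change was -0.44, -0.39 and -0.22. Il4ra minus Il13ra1 changed by 0.11 in knockout and 0.48 in wild type, with overlapping arrays in each genotype, and did not pass (exact permutation adjusted p = 0.21). Between same-numbered knockout arrays it was 0.08, -0.21 and 0.45.

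**Figure D3:**
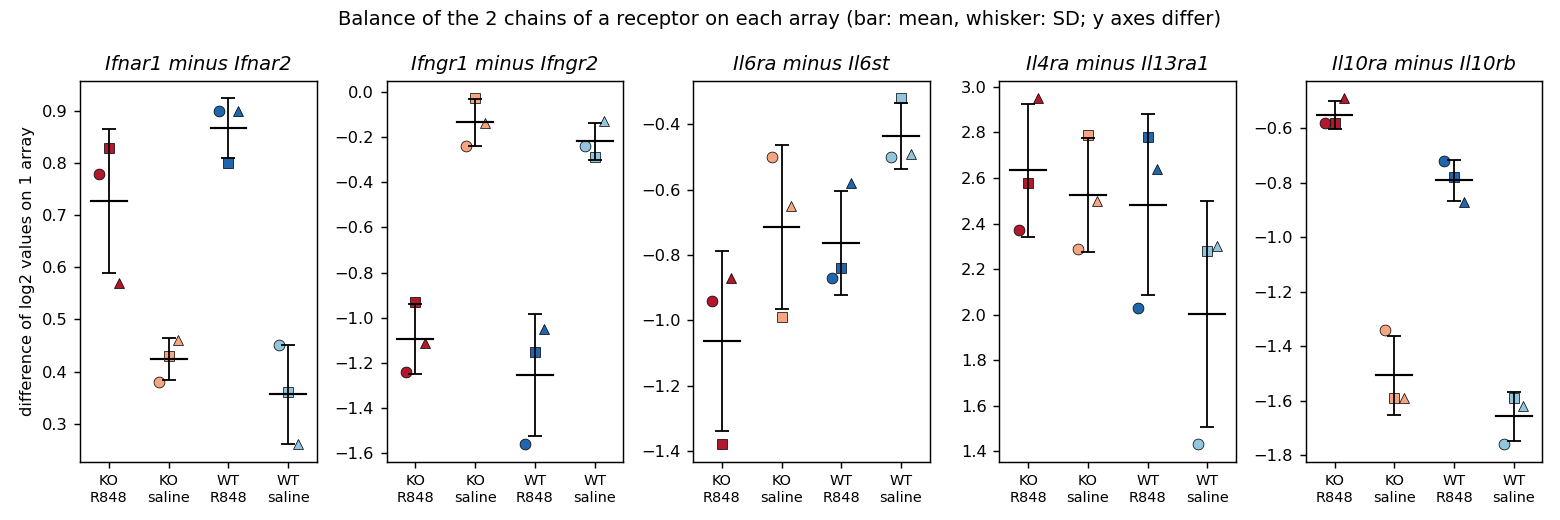
Difference between the log2 values of 2 chains of a receptor on the same array (y axis, log2 units) in each of the 4 groups, 1 panel per receptor, with marker shape for replicate number, a bar for the mean and whiskers for the SD (n = 3). Ifngr1 minus Ifngr2 drops and Il10ra minus Il10rb climbs with R848 in both genotypes, while the panel of Il4ra minus Il13ra1 shows overlapping groups.

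Ifnar2, Il10rb, Ifnar1 and Ifngr2 follow each other in this order on mouse chromosome 16 in the RefSeq gene table, with no other protein-coding gene listed between them. Of these 4 neighbours, Ifnar2, Ifnar1 and Ifngr2 rose with R848 in both genotypes and Il10rb fell in both.

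The second question was whether loss of Rasgef1b changes the level of these receptors. With R848, 0 of 10 members passed the threshold between knockout and wild type, where 0.135% of all tested genes did, and with saline 0 of 10 passed, where 0.334% did. At an unadjusted limma p under 0.05 there were 2 members with R848, Il10ra and Il15ra, where 8.74% of all tested genes had such a p, and 2 with saline, Il10ra and Il13ra1, where 12.6% did. The differences lay between -0.27 and 0.27 with R848 and between -0.35 and 0.25 with saline, and the unadjusted 95% intervals of all 10 members ran from -0.60 to 0.46 with R848 and from -0.68 to 0.46 with saline. A genotype difference of 2-fold thus lay outside the interval of every member in each treatment, while smaller differences could not be resolved for most.

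Il10ra was the one member whose genotypes did not overlap in both treatments, and with saline it was the one such member (16.1% of all tested genes). Its knockout arrays lay between 9.49 and 9.56 with R848, against 9.22 to 9.28 in wild type with R848, and between 8.76 and 8.96 with saline, against 8.40 to 8.68 in wild type with saline. The difference was 0.27 ± 0.09 with R848 (SE, limma adjusted p = 0.33) and 0.25 ± 0.09 with saline (adjusted p = 0.222). Averaged over treatments it was 0.26 ± 0.06 (adjusted p = 0.0452), the single member called of 10, where 1.78% of all tested genes were called, and 3.1% had genotypes that did not overlap in the same direction in both treatments. This call ended without any one of the 12 arrays, with adjusted p between 0.0549 and 0.112, and without a filter (0.0537), after centring on the median of all rows (0.0764) and when same-numbered arrays within a genotype were treated as correlated (0.0941).

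Markers of macrophages and of other cells stood beside this difference. With R848, the mean of the 9 macrophage markers lay between 10.36 and 10.42 in knockout cells, against 10.31 to 10.34 in wild-type cells. With saline it lay between 10.63 and 10.73 in knockout cells, against 10.51 to 10.62 in wild-type cells. Averaged over treatments, all 9 were higher in knockout, with a median of 0.11, and 0 passed. The mean of the 7 dendritic cell markers lay between 5.25 and 5.35 in knockout cells with R848, against 5.20 to 5.21 in wild-type cells with R848, and between 5.24 and 5.37 in knockout cells with saline, against 5.08 to 5.23 in wild-type cells with saline. Of the 5 tested, 0 passed for genotype averaged over treatments. The mean of the 8 neutrophil markers lay between 3.86 and 3.89 in knockout cells with R848, against 3.75 to 3.82 in wild-type cells with R848, and between 3.79 and 3.8 in knockout cells with saline, against 3.74 to 3.83 in wild-type cells with saline. Of the 2 tested, S100a9 was higher (0.30, limma adjusted p = 0.0375), in the fit that counts same-numbered arrays as independent. Their part in the Il10ra difference was not tested.

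Averaged over treatments, Il13ra1 had the largest genotype difference in size of all members, but a larger SE than Il10ra. Il13ra1 was lower in knockout by -0.27 with R848 and -0.35 with saline, with overlapping arrays in each treatment, and averaged -0.31 ± 0.11 (SE, limma adjusted p = 0.166). It passed with the replicate number as a block over all groups (adjusted p = 0.0289), although same-numbered knockout and wild-type arrays did not meet the check for pairing. Il15ra averaged 0.20 ± 0.07 higher in knockout (adjusted p = 0.152), and its genotypes did not overlap with R848, at 5.57 to 5.77 in knockout and 5.22 to 5.55 in wild type, where 13.8% of all tested genes did not overlap. Ifnar1, Ifnar2 and Ifngr2 differed by less than 0.05 in size when averaged over treatments.

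**Figure D4:**
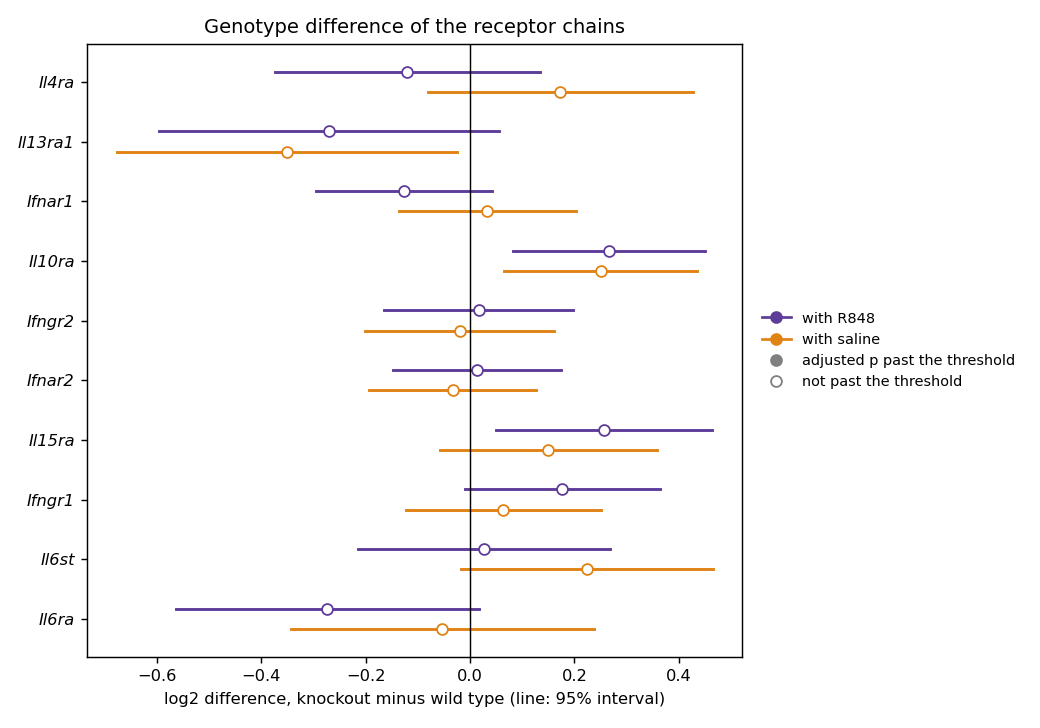
Log2 difference between genotypes (knockout minus wild type, x axis) of each receptor chain (y axis), with R848 and with saline, as point estimates from the fit over all tested genes with unadjusted 95% intervals. All points are open because no difference passed the threshold in a single treatment, and Il10ra is the chain whose interval lies above 0 in both.

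The third question was whether the R848 response itself differed between genotypes. The interaction (the knockout response minus the wild-type response) passed for 0 of 10 members in limma, where 0.0142% of all tested genes passed, and 0 had an unadjusted p under 0.05, where 4.93% did. It ranged from -0.29 for Il4ra, which rose by 2.29 in knockout and 2.58 in wild type, to 0.11 for Ifngr1, which fell by 0.27 in knockout and by 0.38 in wild type. The unadjusted 95% intervals of the interaction ran from -0.65 to 0.54 over the members, so a member whose response differed by a log2 unit would lie outside them.

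The rest of these pathways was described with lists of other receptor chains, ligands, JAK kinases and STATs with their partner Irf9, and feedback regulators. These lists too were chosen with earlier results of these data known, so their counts are a description. Of 21 other receptor chains tested, 5 rose and 4 fell in knockout and 6 rose and 5 fell in wild type, with medians of 0.06 and 0.04. These counts stand beside 41.6% of all tested genes called in knockout, which the 9 of 21 there are near, and 38.3% in wild type. Lifr, the chain that joins Il6st to bind leukaemia inhibitory factor, fell by 1.97 in knockout and by 1.57 in wild type, beside the falls of Il6ra and Il6st. Il7r, the interleukin 7 receptor alpha chain, fell by 1.75 in knockout and by 1.64 in wild type. Csf3r, the receptor for granulocyte colony-stimulating factor, rose by 2.16 in knockout and 2.45 in wild type, and Il20rb rose by 1.06 and 0.99. Il27ra, which joins Il6st in the interleukin 27 receptor, changed by -0.03 in knockout and -0.10 in wild type (limma adjusted p = 0.877 and 0.523). Il2rb, Il12rb1 and Osmr did not pass the filter on dim rows, and Il2rg and Il11ra1 were not analysed here.

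Among the JAK kinases analysed, Jak2 rose most, by 2.94 in knockout and 2.84 in wild type (limma adjusted p = 7.44e-13 and 1.24e-12). It stood at 10.41 ± 0.10 in knockout cells with R848, against 7.47 ± 0.12 in knockout cells with saline, and at 10.30 ± 0.03 in wild-type cells with R848, against 7.46 ± 0.04 in wild-type cells with saline (SD, n = 3 each). Tyk2 rose by 0.80 in knockout and 0.77 in wild type, and Jak1 by 0.44 in each, while Jak3 was not analysed here. Of the 10 tested genes of the JAK and STAT list, 6 rose and 2 fell in knockout and 7 rose and 2 fell in wild type, with medians of 0.58 and 0.61. The shares over all tested genes were 15.6% higher and 26% lower in knockout, and 14.6% and 23.6% in wild type. Stat5a rose by 1.73 in knockout and 1.86 in wild type, Stat3, which interleukins 6 and 10 activate, by 0.89 and 1.03, and Stat2, a part of the type I interferon response complex, by 0.72 and 0.95. Stat6, named after its values were seen because it carries the signal of Il4ra, fell by 0.49 in knockout and by 0.48 in wild type (adjusted p = 0.000126 and 0.000164), while Il4ra and Il13ra1 rose.

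Several ligands of the members or of the other receptor chains listed rose in the same cells. Of 28 on the array, 16 passed the filter on dim rows and were tested. Of these, 7 rose and 0 fell in each genotype, with medians of 0.19 in knockout and 0.21 in wild type. An unadjusted limma p under 0.05 was met by 7 in knockout and 8 in wild type. Over all tested genes, 47.9% in knockout and 44.8% in wild type had such a p. The counts by that p, which ignore direction, are near this background. By direction, 15.6% of all tested genes were called higher and 26% lower in knockout, and 14.6% and 23.6% in wild type. Il6 averaged 7.72 ± 0.26 in knockout cells with R848, against 3.37 ± 0.20 in knockout cells with saline, and 7.55 ± 0.20 in wild-type cells with R848, against 3.36 ± 0.13 in wild-type cells with saline (SD, n = 3 each). Its saline values lay under the dim limit, so Il6 passed the filter only through its R848 arrays. Its rise was thus fixed by the filter and adds no evidence to the counts above. Its chains Il6ra and Il6st fell in both genotypes. Il10 rose by 2.97 in knockout and 3.12 in wild type, Il12b by 4.73 and 4.42, and Il27 by 3.26 and 3.31. Il15, named after its values were seen as the ligand of Il15ra, rose by 1.77 in knockout and 1.46 in wild type. Ifnb1 and Il4 were under the dim limit in all groups, and Il13 changed by 0.11 in knockout and -0.03 in wild type, neither past the threshold.

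Of 22 feedback and processing genes tested, 11 rose and 5 fell in each genotype, with medians of 0.26 in knockout and 0.24 in wild type. Over all tested genes, 15.6% were called higher and 26% lower in knockout, and 14.6% and 23.6% in wild type. Socs3, which blocks signalling at Il6st, rose by 4.79 in knockout and 4.64 in wild type. Usp18, which restrains signalling at Ifnar2, rose by 2.52 in knockout and 2.73 in wild type, Socs1, an inhibitor of JAK kinases, by 1.47 and 1.63, and Isg15 by 1.49 and 1.21. Sh2b3, an adaptor that restrains Jak2, fell by 1.46 in knockout and by 1.27 in wild type. Adam17, a protease that sheds the Il6ra protein and named after its values were seen, rose by 0.90 in knockout and 0.93 in wild type.

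**Figure D5:**
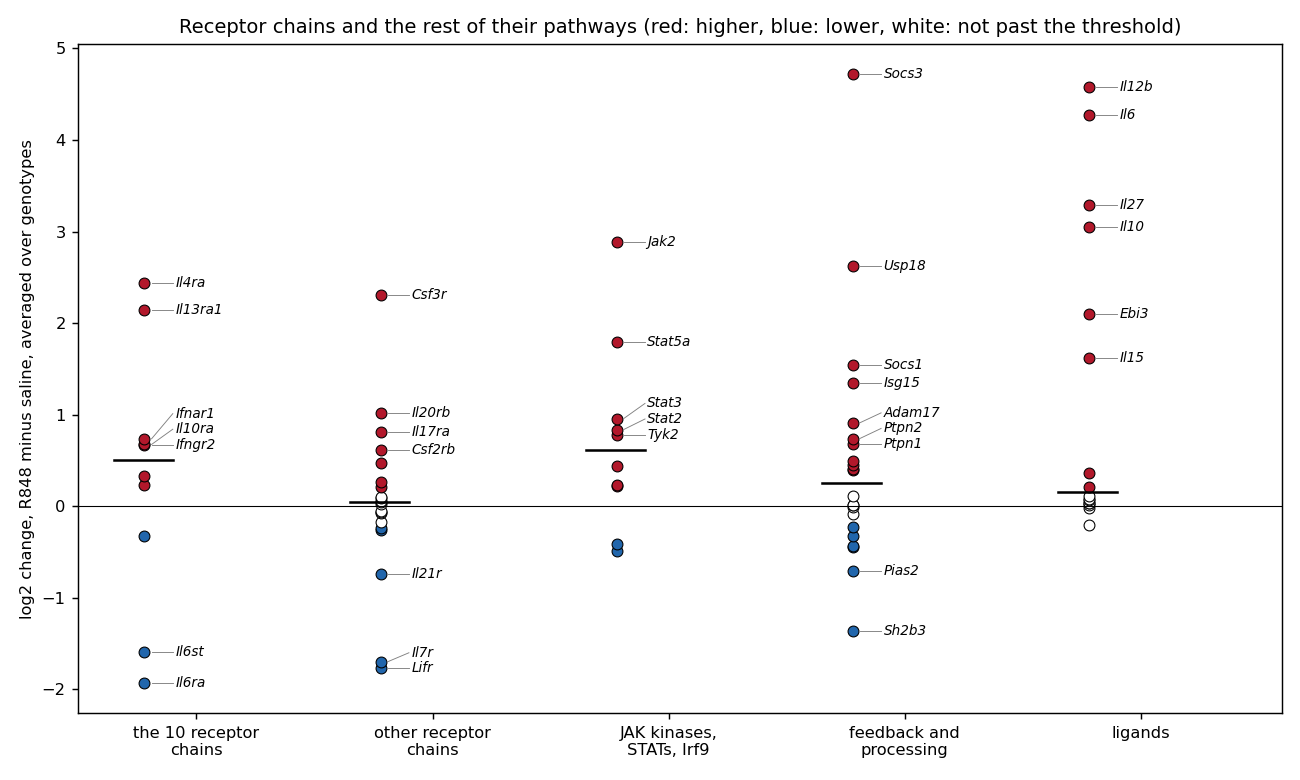
Log2 change with R848 averaged over genotypes (y axis) of each tested gene in 5 lists (x axis), 1 point per gene, red where higher, blue where lower and white where not past the threshold, with a bar at the list median and names for changes of at least 0.6 in size. The 10 receptor chains spread from -1.93 for Il6ra to 2.44 for Il4ra, the ligands have no blue point, and Jak2 stands at 2.89.

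Between genotypes, 0 of 21 other receptor chains, 0 of 16 ligands and 0 of 10 JAK and STAT genes passed with R848 by limma, with 0, 4 and 2 at an unadjusted p under 0.05. Over all tested genes, 0.135% passed with R848 and 8.74% had such a p. With saline, Stat2 was the 1 gene called among these lists, where 0.334% of all tested genes were called. Averaged over treatments, Stat2 was 0.50 higher in knockout (limma adjusted p = 0.00235) and Usp18 0.48 higher (adjusted p = 0.0161). In that comparison 1.78% of all tested genes were called. It counts the R848 and saline arrays of a genotype as independent, though same-numbered knockout arrays met the check for pairing. With same-numbered arrays within a genotype treated as correlated, 118 of all tested genes were called in place of 251. Whether Stat2 and Usp18 were among the 118 is not given here.

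The genes with the pattern most like that of the members with the largest change were ranked by Pearson correlation over the 12 arrays. These values are a description: the arrays fall into R848 and saline clusters, so any gene with a strong and even response scores high. For Il4ra the nearest were Aoah (0.9963), Rhoq (0.9961) and Serp1 (0.9959), which rose by 1.94, 1.41 and 1.5 in knockout and 2.05, 1.58 and 1.54 in wild type. For Il13ra1 they were Sik3 (0.9931), the chemokine gene Ccl22 (0.9913) and the collagenase gene Mmp13 (0.9912), which rose by 1.28, 4.09 and 3.37 in knockout and 1.35, 4.12 and 3.20 in wild type.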

How the data were processed

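Expression was measured on 12 Affymetrix Mouse Gene 2.1 ST arrays. Per the submitters' processing notes, the authors used Affymetrix Expression Console and RMA, which corrects background, applies quantile normalization and summarizes probes. For versions, "not given in the sources used here" applies. What they deposited are log2 values between 2.15 and 12.85, in which a change in total RNA per cell is not visible. Array depth does not apply, and the number of arrays limits the precision. Of 34472 rows, 23521 had 1 gene symbol in the platform table, 1814 several and 9137 none. Symbols were checked by Entrez number for 23328 rows, which changed 0. For several rows of a gene, the row with the highest mean was used. A gene was tested if it lay above a dim limit (4.31 to 4.35, the 40th percentile of each array over rows with 1 symbol) on at least 3 arrays.

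Groups came from sample titles. All 12 arrays entered 1 fit of group means (limma 3.58.1, R 4.3.3, lmFit and eBayes), with Benjamini-Hochberg adjustment over 14079 genes and a threshold of 0.05. The fit was tested on simulated data. Same-numbered arrays were checked by the correlation of their deviations from group means, with a minimum of 0.1. The knockout arrays with R848 and saline met it (0.27, 0.17 and 0.28), which the data show and no label states, and the other comparisons did not. Named genes are the 10 members, partner chains, JAK kinases and up to 4 genes per list and R848 comparison with the largest change past the threshold. For the 2 members with the largest averaged change, the 3 most correlated genes are named. Members and lists were chosen with earlier results of these data known. Alternatives covered the spread model, filters, scaling, arrays in the fit, array weights, blocks, a size rule, the row used, and leaving out each array.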

Additional observations from a re-analysis of the deposited data

How the results depend on the processing

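For 8 members (Il4ra, Il13ra1, Il6ra, Il6st, Ifnar1, Ifnar2, Ifngr2 and Il10ra) the R848 changes kept their direction and stayed past the threshold in both genotypes, in all 384 results under the alternatives without a size rule. With a log2 change of at least 1 required, the count of members past the threshold was 4 in knockout, 4 in wild type and 4 averaged over genotypes, and 0 for genotype averaged over treatments, where the rule itself leaves out smaller changes. For genotype averaged over treatments the count of 1 was also 0 without a filter, after median centring and with same-numbered arrays within a genotype treated as correlated, and 2 with the replicate block by number. The cause was not tested. Leaving out each array in turn gave 8 to 10 members in knockout, 9 in wild type, 10 averaged over genotypes, and 0 for genotype averaged over treatments. Counts for genotype in either treatment and for the interaction were 0 under every alternative run. The replicate block within genotype changed no member's R848 call, with 10 in knockout and 9 in wild type. Over all tested genes the share of higher calls was 37.4% in knockout and 38.3% in wild type, against 63.6% and 62.2% after centring on the median of the tested genes, an alternative chosen after seeing the data. Counts over all tested genes for genotype moved most, from 47 with saline to 5 with the size rule and 99 with the replicate block by number, and from 251 averaged over treatments to 8 and 402. Leaving out each array in turn gave 10 to 65 with saline and 73 to 249 averaged over treatments. With R848 the count of 19 ranged from 7 to 28, and the interaction count of 2 from 1 to 3.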
